A study of Rattus norvegicus with 4 samples.

Results

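Cardiac troponin T (Tnnt2), cardiac troponin I (Tnni3) and the calcium pump SERCA2 (Atp2a2) were followed through 4 RNA sequencing libraries of neonatal rat ventricular myocytes. These are heart muscle cells kept in primary culture, here from Sprague Dawley rats 2 days old. Every culture was transfected with siRNA for 6 h, either a negative control (siNeg, here control siRNA) or one directed at the long noncoding RNA Chaer (siChaer, here Chaer siRNA), and grown in ITS medium. The 4 groups were control siRNA, Chaer siRNA, control siRNA with 50 µM phenylephrine and Chaer siRNA with 50 µM phenylephrine, the last 2 collected after 48 h. No matching time is listed for the first 2, so an equal time in culture cannot be checked here. Phenylephrine activates α1-adrenergic receptors and makes cultured myocytes enlarge, and the series asked what Chaer contributes to that response.

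The genes were 3 of 26406 listed features, taken by Ensembl identifier: ENSRNOG00000033734 for Tnnt2, ENSRNOG00000018250 for Tnni3 and ENSRNOG00000001285 for Atp2a2. Each had to reach a mean of 20 RPKM over the 4 libraries. RPKM divides reads by gene length in kilobases and by the library's read total, so it allows genes of different length to be compared. All 3 lay far above that limit, with means of 4486, 3106 and 913 RPKM. The pairing of identifier and symbol comes from this selection. The deposited files carry no symbols for these features and the reference table matched 0 identifiers, so the names were not checked against a second source. For the same reason other sarcomere and calcium genes, and markers of other heart cells, were not analysed here.

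Troponin sits on the thin filament of the sarcomere and makes contraction depend on calcium. Troponin T anchors the complex to tropomyosin, and troponin I holds back the interaction of actin and myosin until calcium binds troponin C. SERCA2 pumps calcium from the cytosol back into the sarcoplasmic reticulum, which ends the contraction and fills the store for the next beat. Reduced Atp2a2 expression is a widely used sign of pathological hypertrophy and heart failure.

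Each group was 1 library, so no value has an error from replicate cultures. The bracketed intervals are 95% intervals of counting error alone, which is small here because each gene had 75463 to 254549 reads per library. In bulk RNA, fewer myocytes and less of a transcript in each myocyte cannot be told apart. Listed features held 33944988 to 39155363 reads per library, and the 20 features with the most reads took 24.9% of them in the control siRNA library against 20.6% to 21.7% in the other 3. Tnnt2 and Atp2a2 were themselves among the 20 features with the most reads over all libraries.

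The reference promoters of the 3 genes are shown as background, without a test of any link to the courses below. They come from RefSeq on GRCr8, all on the plus strand, and run from 250 bases before the annotated start to 50 after it. The windows are chr13:49818873-49819172 for Tnnt2, chr1:78342321-78342620 for Tnni3 and chr12:39733269-39733568 for Atp2a2. The submitters' processing notes name another build, rn5, for the reads. Capitals mark matches, on either strand, to the M-CAT element CATTCC, the GATA motifs AGATAA and TGATAA, and the GC box GGGCGG.
Tnnt2: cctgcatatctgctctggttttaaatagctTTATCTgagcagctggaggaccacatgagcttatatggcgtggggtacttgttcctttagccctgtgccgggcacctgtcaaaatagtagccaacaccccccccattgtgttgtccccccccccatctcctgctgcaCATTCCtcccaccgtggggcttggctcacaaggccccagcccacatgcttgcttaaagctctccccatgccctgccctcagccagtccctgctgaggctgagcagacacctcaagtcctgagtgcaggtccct
Tnni3: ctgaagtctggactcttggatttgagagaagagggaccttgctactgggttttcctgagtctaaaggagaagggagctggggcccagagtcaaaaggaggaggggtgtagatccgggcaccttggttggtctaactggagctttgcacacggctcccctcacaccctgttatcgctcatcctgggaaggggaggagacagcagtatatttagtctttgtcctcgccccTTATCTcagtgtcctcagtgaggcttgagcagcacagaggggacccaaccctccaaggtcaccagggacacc
Atp2a2: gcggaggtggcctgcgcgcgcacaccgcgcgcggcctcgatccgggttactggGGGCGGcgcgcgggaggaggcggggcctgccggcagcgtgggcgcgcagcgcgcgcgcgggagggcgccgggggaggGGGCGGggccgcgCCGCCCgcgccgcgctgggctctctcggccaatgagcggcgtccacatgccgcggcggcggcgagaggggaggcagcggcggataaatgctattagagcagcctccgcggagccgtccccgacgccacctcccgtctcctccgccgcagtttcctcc

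M-CAT elements bind TEAD factors and GATA motifs bind GATA4, factors long linked to cardiac gene expression and to the α1-adrenergic response. Tnnt2 held 1 M-CAT element, beginning 83 bases before the start, and 1 GATA motif at -220. Tnni3 held 1 GATA motif at -22 and no M-CAT match. Atp2a2 held neither, but 3 GC boxes, at -197, -120 and -107, in a window with 79.0% G and C against 57.3% for Tnnt2 and 55.3% for Tnni3. Of 33469 such windows in the table, 14.2% held the M-CAT letters, 18.9% a GATA motif and 33.1% the GC box. The letters TATAAA, in 14.2% of windows, had 0 matches in all 3 promoters. The E-box CANNTG, in 72.1% of windows, had 4 matches in Tnnt2, 0 in Tnni3 and 1 in Atp2a2. A second annotated start of Tnnt2 had none of the capitalised motifs. These matches describe the letters of the windows only.

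Tnnt2 was the most abundant of the 3 genes in every library and was highest where both agents were present. With control siRNA it stood at 3567 RPKM (3549 to 3585), with Chaer siRNA at 4260 RPKM (4241 to 4279), with control siRNA and phenylephrine at 4520 RPKM (4499 to 4541), and at 5595 RPKM (5574 to 5617) with Chaer siRNA and phenylephrine. At 146849 to 254312 reads the 4 counting intervals were narrow and did not overlap. They say nothing of differences between cultures. It ranked 17th among all features by RPKM in the control siRNA library and 10th in the library with both agents.

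Tnni3 spanned the narrowest range, 1.34-fold from its lowest to its highest library, against 1.57-fold for Tnnt2 and 1.61-fold for Atp2a2. The control siRNA library held 3255 RPKM (3233 to 3278), the others 2972 RPKM (2952 to 2992) with Chaer siRNA, 3548 RPKM (3525 to 3572) with control siRNA and phenylephrine, and 2648 RPKM (2629 to 2667) with both agents. Both Chaer siRNA libraries lay below both control siRNA libraries. The highest and the lowest value were the 2 libraries that received phenylephrine.

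Atp2a2 was the least abundant of the 3 per kilobase, although its gene model of 6120 bp, against 1113 bp for Tnnt2 and 698 bp for Tnni3, gave it the most reads in 3 of the 4 libraries. The control siRNA library held 1124 RPKM (1120 to 1129), the others 811 RPKM (808 to 815) with Chaer siRNA, 1016 RPKM (1012 to 1020) with control siRNA and phenylephrine, and 700 RPKM (697 to 703) with both agents. The order of libraries was the reverse of that of Tnnt2 only at its ends. The control siRNA library was highest and the library with both agents lowest, with the Chaer siRNA library below that of phenylephrine alone. By RPKM it stood 44th among all features with control siRNA and 80th with both agents.

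**Figure D1:**
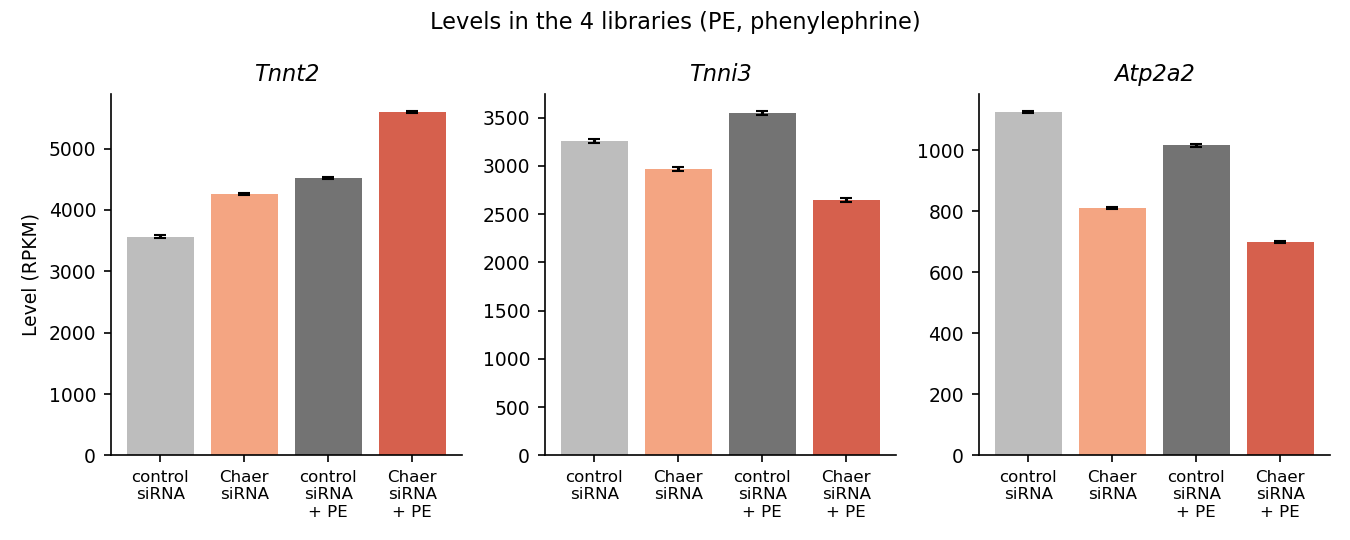
Level of each gene (RPKM, linear axis from 0) in the 4 libraries; bars are single libraries and error bars are 95% Poisson counting intervals. Tnnt2 runs from 3567 to 5595 RPKM with the top in the library with both agents, where Tnni3 (2648 RPKM) and Atp2a2 (700 RPKM) are lowest.

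Phenylephrine with control siRNA asks how these genes respond with Chaer left in place. Tnnt2 was 1.27 times as high with phenylephrine (1.26 to 1.28) and Tnni3 1.09 times as high (1.08 to 1.10), whereas Atp2a2 was 1.11 times lower (1.10 to 1.11). None of the 3 reached 2-fold, a size that 1.73% of the 12226 features averaging 1 RPKM or more passed, and none reached 1.5-fold, passed by 7.56%. Among the 4041 features averaging 20 RPKM or more, 12.4% had a higher ratio than Tnnt2, 31.9% a higher one than Tnni3 and 26.8% a lower one than Atp2a2. The median log2 ratio of (RPKM + 1) over those features was 0.01, beside 0.34 for Tnnt2, 0.12 for Tnni3 and -0.15 for Atp2a2. Tnni3 and Atp2a2 thus lay well inside the spread of abundant features.

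Phenylephrine with Chaer siRNA asks the same with Chaer targeted. Tnnt2 was 1.31 times as high (1.31 to 1.32), Tnni3 was 1.12 times lower (1.11 to 1.13) and Atp2a2 was 1.16 times lower (1.15 to 1.17). Again 0 of 3 passed 2-fold, against 1.97% of all features, and 0 of 3 passed 1.5-fold, against 10.2%. The log2 ratios of (RPKM + 1) were 0.39, -0.17 and -0.21 in that order. The median over features of at least 20 RPKM was -0.10, so Tnni3 and Atp2a2 were close to it. Of these features 9.75% had a higher ratio than Tnnt2.

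Chaer siRNA without phenylephrine addresses the unstimulated cells. Atp2a2 was the gene that differed most, 1.39 times lower with Chaer siRNA (1.38 to 1.39). Tnni3 was 1.10 times lower (1.08 to 1.11) and Tnnt2 1.19 times as high (1.19 to 1.20). None passed 2-fold, against 2.13% of all features, or 1.5-fold, against 11.1%. Of the features of at least 20 RPKM, 4.97% had a lower ratio than Atp2a2 and 20.9% a lower one than Tnni3, while 28.3% had a higher one than Tnnt2. The median log2 ratio over those features was 0.11, which places Tnnt2, at 0.26, nearer to the middle than its ratio alone shows.

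Chaer siRNA with phenylephrine addresses the stimulated cells, and Tnni3 and Atp2a2 again had lower ratios than most abundant features. Atp2a2 was 1.45 times lower (1.44 to 1.46) and Tnni3 1.34 times lower (1.33 to 1.35), while Tnnt2 was 1.24 times as high (1.23 to 1.25). Of the features of at least 20 RPKM, 3.37% had a lower ratio than Atp2a2, 6.58% a lower one than Tnni3 and 14.6% a higher one than Tnnt2. None of the 3 passed 2-fold, against 1.85% of all features, or 1.5-fold, against 8.78%. The comparisons of Chaer siRNA and of phenylephrine share libraries, so their values for a gene are not independent of each other.

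The library with both agents was also set directly against the control siRNA library, a comparison added after the levels had been seen. Tnnt2 was 1.57 times as high (1.56 to 1.58), Atp2a2 was 1.61 times lower (1.60 to 1.62) and Tnni3 was 1.23 times lower (1.22 to 1.24). Tnnt2 and Atp2a2 passed 1.5-fold, as did 16.2% of all features. None of the 3 passed 2-fold, against 5.05%. Of the features of at least 20 RPKM, 8.29% had a higher ratio than Tnnt2 and 4.70% a lower one than Atp2a2.

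**Figure D2:**
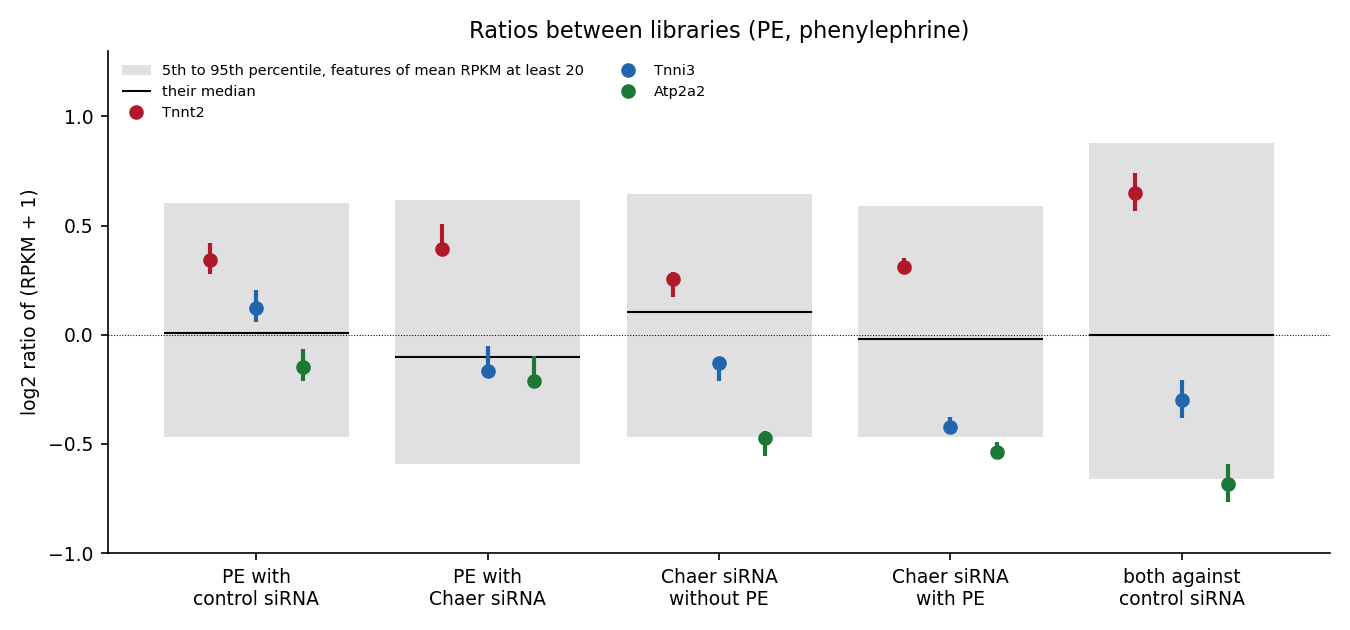
Log2 ratio of (RPKM + 1) between 2 libraries for each gene in 5 comparisons (points), with a line over the values under all pseudocounts, filters and scalings run; grey bands run from the 5th to the 95th percentile of the 4041 features averaging 20 RPKM or more and black lines are their medians. Tnnt2 lies above the median in all 5 comparisons and Atp2a2 below it, and in the 3 comparisons of Chaer siRNA with control siRNA the Atp2a2 point is at or just under the lower edge of the band.

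A ratio of 2 genes inside a library does not depend on how libraries are scaled to each other. The ratio of Tnnt2 to Tnni3, per length, was 1.10 (1.09 to 1.11) with control siRNA, 1.43 (1.42 to 1.45) with Chaer siRNA, 1.27 (1.26 to 1.28) with control siRNA and phenylephrine, and 2.11 (2.10 to 2.13) with both agents. Tnnt2 and Tnni3 transcripts were thus nearly level in the control siRNA library, and Tnni3 made up 47.7% of their summed RPKM there. With both agents it made up 32.1%. The sum itself was 6822 RPKM with control siRNA, 7232 with Chaer siRNA, 8068 with control siRNA and phenylephrine, and 8243 with both agents. Chaer siRNA went with a 1.31-fold higher ratio (1.29 to 1.32) without phenylephrine and a 1.66-fold higher one (1.64 to 1.68) with it. Other troponin genes were not analysed, so these ratios do not give the balance of all troponin T and troponin I transcripts.

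The ratio of Tnnt2 to Atp2a2 had the widest range. It was 3.17 (3.15 to 3.19) with control siRNA, 5.25 (5.22 to 5.29) with Chaer siRNA, 4.45 (4.42 to 4.48) with control siRNA and phenylephrine, and 8.00 (7.95 to 8.04) with both agents, a 2.52-fold span (2.50 to 2.54). The ratio of Tnni3 to Atp2a2 moved less. It was 2.90 (2.87 to 2.92) with control siRNA, and 3.66 (3.63 to 3.69), 3.49 (3.47 to 3.52) and 3.78 (3.75 to 3.82) with Chaer siRNA, with phenylephrine and with both. Those 3 libraries lay 1.21-fold to 1.31-fold above the control siRNA library and close to each other.

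**Figure D3:**
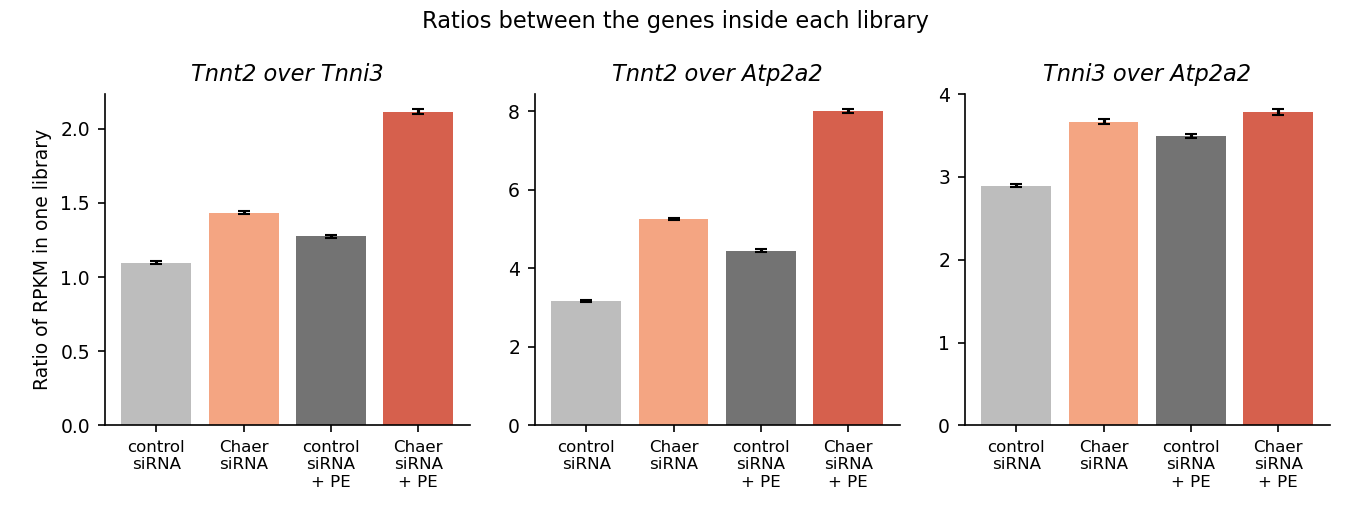
Ratio of the RPKM of 2 genes inside each library (linear axes from 0, one bar per library), with 95% counting intervals. The ratio of Tnnt2 to Tnni3 goes from 1.10 in the control siRNA library to 2.11 with both agents, and that of Tnnt2 to Atp2a2 from 3.17 to 8.00.

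The difference of the phenylephrine effects asks whether the response depended on the siRNA. Taken as the log2 effect under Chaer siRNA less the one under control siRNA, it was 0.05 (0.04 to 0.06) for Tnnt2 and -0.07 (-0.08 to -0.05) for Atp2a2. Had the separate effects of both agents multiplied, Tnnt2 would have stood at 5398 RPKM with both and Atp2a2 at 733 RPKM, against 5595 and 700 measured. For Tnni3 it was -0.29 (-0.31 to -0.27). The median of this difference over features of at least 20 RPKM was -0.13, so Tnni3 lay below it and Tnnt2 above it by similar amounts. The product for Tnni3 would have been 3239 RPKM, and the level measured was 0.817 times that. None reached 2-fold, passed by 0.540% of all features. Of the features of at least 20 RPKM, 30.1% had a larger difference in either direction than Tnni3. Of the summed squared log2 effects in Tnni3, 78.0% lay along the siRNA, 0.459% along phenylephrine and 21.5% in this departure. For Atp2a2 88.4% lay along the siRNA, and for Tnnt2 62.7% lay along phenylephrine and 37.0% along the siRNA. These shares rest on single deposited values and depend on the scaling. With TMM scaling, the phenylephrine log2 ratios of Tnni3 were 0.20 with control siRNA and -0.05 with Chaer siRNA, against 0.12 and -0.17 as deposited.

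Over all 4 libraries, an additive edgeR quasi-likelihood fit set 2 libraries against 2 for each agent. In it Atp2a2 fell with Chaer siRNA, with a log2 term of -0.51 ± 0.18 (SE; edgeR adjusted p = 0.0259), in both pairs of libraries. It was the only call among the 3 genes for this term, which called 10.2% of features lower and 9.44% higher. Tnni3 had a Chaer siRNA term of -0.28 ± 0.16 (edgeR adjusted p = 0.230) and Tnnt2 one of 0.27 ± 0.18 (edgeR adjusted p = 0.305). Neither passed in any other setting run. Tnni3 came nearest among features of at least 20 RPKM, with a term of -0.32 (edgeR adjusted p = 0.0508). For phenylephrine, which called 8.76% of features higher and 6.59% lower, 0 of the 3 genes passed. That balance turned with the scaling, from 1071 higher and 806 lower to 703 higher and 1292 lower with library size alone. The unadjusted edgeR p was under 0.05 for 1 of the 3 genes, and for 3217 of the 12226 features. The gene was Tnnt2, whose term of 0.46 ± 0.18 did not pass (edgeR adjusted p = 0.0537). It passed with DESeq2 (adjusted p = 0.0266), without a filter on low counts (edgeR adjusted p = 0.0123) and among features of at least 20 RPKM (edgeR adjusted p = 0.0122). It did not pass with median-ratio scaling (edgeR adjusted p = 0.0627), at a mean of at least 5 RPKM (0.0561), with library size alone (a term of 0.36, edgeR adjusted p = 0.188) or with the siRNA left out of the model (edgeR adjusted p = 0.577). The terms of Tnni3 and Atp2a2 were 0.08 ± 0.16 and -0.08 ± 0.18 (edgeR adjusted p = 0.821 and 0.823). With 1 residual degree of freedom, the error behind these values is how far all genes depart from additive effects, and replicate cultures do not enter it. With phenylephrine left out of the model the Atp2a2 term for Chaer siRNA stayed at -0.51, but its SE was 0.25 and the call was lost (edgeR adjusted p = 0.474). The call was kept in the other settings run on the same 4 libraries, with terms from -0.54 to -0.49.

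**Figure D4:**
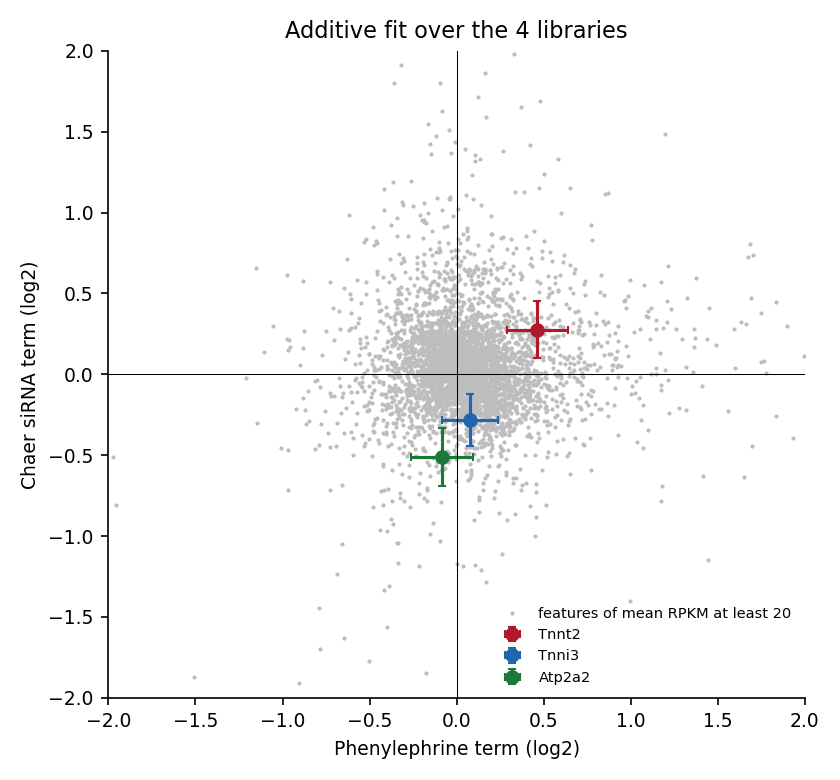
Phenylephrine term against Chaer siRNA term (both log2, additive edgeR fit) for 4041 features averaging 20 RPKM or more (grey, 13 outside the axes) and for the 3 genes, with SEs as error bars. Tnnt2 lies up and right at 0.46 and 0.27, while Tnni3 and Atp2a2 lie near 0 for phenylephrine and at -0.28 and -0.51 for Chaer siRNA.

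For each gene the feature with the most similar course was sought, by Euclidean distance between log2(RPKM + 1) profiles over the 4 libraries after centring each on its mean, among the features of at least 20 RPKM. Nearest to Atp2a2 was ENSRNOG00000019711 at a distance of 0.0154, with 49.6, 35.7, 45.2 and 30.9 RPKM in the control siRNA, Chaer siRNA, control siRNA with phenylephrine and Chaer siRNA with phenylephrine libraries. Nearest to Tnni3 was ENSRNOG00000010574 at 0.0277, and nearest to Tnnt2 was ENSRNOG00000019791 at 0.0658. The files do not pair these identifiers with names. Seen from Tnni3, Atp2a2 was the 847th nearest feature and Tnnt2 the 3257th. The 2 troponin genes were 0.70 apart, more than the median distance of 0.44 from Tnni3 to all these features. Profiles of 4 points that share library totals resemble each other easily, and these distances are descriptions.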

How the data were processed

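RNA was sequenced from 4 stranded TruSeq libraries, per the labels' protocols. The submitters' processing notes name TopHat2 and the build rn5. The counting tool, annotation release, strand setting and filters were not given in the sources used here, so reads of features overlapping on the other strand may not be separated. Per the file headers, the authors deposited whole-number read counts and RPKM values for 26406 features. Counts divided by RPKM gave each gene model's length and library totals of 35314303 to 40835172 reads.

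Ratios were taken as deposited, and log2 ratios of (RPKM + 1) were ranked over the 12226 features averaging 1 RPKM or more. Intervals at 95% were exact Poisson (levels), exact binomial (ratios) or normal on log counts (differences of ratios). They treat reads as independent molecules, which cannot be checked here for lack of molecular identifiers. The edgeR 4.0.16 quasi-likelihood fit (siRNA plus phenylephrine, TMM, Benjamini-Hochberg adjustment over 12226 features, threshold 0.05) used the counts. Its prior degrees of freedom were infinite. Its SEs were computed as the absolute log2 term divided by the square root of the test's F statistic. The labels do not say whether the 4 differently treated cultures came from separate cell isolations. Behind the p-values is departure from additive effects, in which interaction of the agents, differences between cultures and technical spread cannot be told apart. DESeq2 1.42.0, other scalings, filters, pseudocounts and a 1.5-fold rule were alternatives. The fit and the fold rule were tested on simulated data.

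The genes and all lists were chosen with earlier results of these data known. The genes named in the text were the 3 selected genes and, for each, the nearest profile by identifier. Marker and pathway lists were written by symbol and could not be applied. Whether Chaer itself was lowered was not analysed here.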

Additional observations from a re-analysis of the deposited data

Results flagged for a closer look

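The library pairs with and without phenylephrine differed in opposite directions for Tnni3 under the 2 siRNAs. It was 1.09 times as high with control siRNA, at a log2 ratio of 0.12, and 1.12 times lower with Chaer siRNA, at -0.17, a difference of 0.29. Over features of at least 20 RPKM the median of the log2 effect with Chaer siRNA less that with control siRNA was -0.13, and 30.1% of them had a larger difference in either direction than Tnni3. The signs were kept under every scaling run, from 0.06 to 0.20 with control siRNA and from -0.17 to -0.05 with Chaer siRNA. Pseudocounts and filters could not have turned a sign at this level. The difference was not tested, since a group is 1 library.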

How the results depend on the processing

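Tnnt2, Tnni3 and Atp2a2 kept the direction of every ratio between libraries under the planned scalings, with 1 exception. The filters, with the added one at 20 RPKM, leave a gene's own ratio unchanged. Pseudocounts hardly alter it at these levels, so neither could have turned a direction. The difference of the phenylephrine effects of Atp2a2 went to 9.11e-05 when the 20 features with the most reads were left out of the library size. The phenylephrine term of Tnni3 turned from 0.08 with TMM scaling to -0.024 with library size alone in edgeR. As deposited, its 2 phenylephrine log2 ratios, of opposite sign, averaged -0.02. In each case only the library scaling differed from the main setting, and no further cause was tested. With the 1.5-fold rule, 2 of the 3 genes passed for both agents against control siRNA, as did 16.2% of the 12226 features.

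Counts of features past 2-fold depended on the measure. In the order phenylephrine with control siRNA, phenylephrine with Chaer siRNA, Chaer siRNA without and with phenylephrine, difference of effects, both agents, the main counts were 211, 241, 261, 226, 66 and 618. They were 93, 96, 92, 84, 10 and 278 with a pseudocount of 5, and 88, 90, 95, 83, 11 and 227 at a mean of at least 20 RPKM. With the 1.5-fold rule they were 924, 1245, 1363, 1074, 751 and 1980. A pseudocount of 0.1 gave 351, 424, 463, 433 and 205 for the first 5, and a mean of at least 5 RPKM gave 32 for the difference. The additive fit called 1877 features for phenylephrine and 2397 for Chaer siRNA. DESeq2 called 903 and 1063, the filters at 5 and 20 RPKM 1145 and 1372, and 1052 and 1011, and models without the other factor 8 and 1. Fewer features were tested under the stricter filters, and elsewhere the cause was not tested.

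No paired analysis was possible because no replicate numbers link libraries, each group being 1 library; the additive fit already compares each agent within the levels of the other. Leaving out any library removes a group. Counting error does not limit these genes, and the missing replicates do.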
